A study of Mus musculus with 12 samples.

Results

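The genes described here mark T and B lymphocytes, the cells of adaptive immunity, and were read on 12 expression arrays of whole mouse lung. Of 35 listed genes, 22 are T cell genes and 13 are B cell genes. A gene was kept where a probe set carried its symbol alone, which left 33 genes (20 T cell, 13 B cell) among 18193 such genes in the series. Lck and Tcf7 were not analysed here. Each gene was represented by 1 probe set, the one with the highest mean log2 signal over the 12 arrays.

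The arrays form 4 groups of 3. Wild-type Balb/c mice and mice labelled PPTA knockout, both aged 8 to 10 weeks, had surgery 8 h before sampling. In cecal ligation and puncture (CLP) the gut is tied and pierced so that its bacteria cause sepsis, and sham-operated mice were the controls. The label PPTA stands for the gene now named Tac1, which encodes the precursor of the neuropeptide substance P, and the comparisons ask how the septic lung differs with and without it. The knockout carries no strain label, and strain and genotype therefore cannot be told apart. Triplicates are named, but nothing says that they were separate animals, so the spread behind the p-values is that between samples and may be technical.

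T cells recognise antigen through a receptor whose signal is passed on by the CD3 chains and CD247 to the kinase ZAP70 and the adaptor LAT. B cells use a membrane antibody coupled to CD79A and CD79B, which signal through the adaptor BLNK. In the lung both cell types are a minority beside epithelium and endothelium, partly resident and partly passing through the blood vessels, and in sepsis lymphocytes are known to leave the blood, redistribute and die. In whole tissue, fewer cells of a type and less RNA per cell cannot be told apart.

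The arrays bear a few facts on all results. The Tac1 probe set above background gave 2.80 to 16.1 signal units across the 6 wild-type arrays but 337 to 530.3 across the 6 labelled knockout, which goes against the label, so these groups are called knockout-labelled throughout. The third array of knockout-labelled sham differed most from its own group, followed by arrays 3 and 1 of knockout-labelled CLP. On the sham array, 646 probe sets exceeded both sister arrays by 2-fold or more and 758 lay below both by as much, where no wild-type array had more than 33 and 78 such probe sets. Array 3 of knockout-labelled CLP had 202 and 471 of them and array 1 had 92 and 329. The lung epithelial markers, among them the surfactant genes Sftpc and Sftpb, summed to 43000 to 52430 units, so the labelled tissue was borne out. The array medians were 31.1 to 38.4 units, and a signal near or below them is close to the level of unexpressed genes.

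Of the 33 genes, 27 exceeded the array median on at least 3 arrays and were tested (16 T cell, 11 B cell). Cd4, Cd8b1, Cd27, Gata3, Pax5 and Cr2 did not, and are given by value. Differences are on the scale of log2(signal + 3.47), which pulls those of weak genes towards 0, and folds are ratios on that scale. A gene was called at an adjusted p under 0.05 in limma, adjusted over all 24574 probe sets tested.

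CLP raised 1 lymphocyte gene in the wild type, Cd3d. Over all probe sets tested, 0.814% were called higher and 0.134% lower in that comparison. No B cell gene was called in the wild type by limma, with 3 at an unadjusted p under 0.05. In knockout-labelled lungs CLP raised 5 T cell genes (Cd3d, Cd2, Cd28, Il7r and Ccr7) and lowered 3 B cell genes (Cd79a, Blnk and Fcer2a), while 10.4% of all probe sets were called higher and 18.8% lower. No T cell gene was called lower and no B cell gene higher there, also not at the same threshold with quantile normalisation or with each array centred on its median. Array weights called 11 of the genes there, among them Zap70 as a lower T cell gene. Averaged over both genotypes, CLP raised 6 T cell genes, adding Cd247, and lowered 1 B cell gene, Fcer2a, against 7.36% and 12.7% of all probe sets.

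The median response of the 20 T cell genes to CLP was 0.14 in the wild type and 0.29 in knockout-labelled lungs. The medians of all probe sets tested were -0.05 and -0.12. For the 13 B cell genes the medians were -0.13 and -0.55. The wild-type B cell median rested on array 1 of wild-type sham and became 0.06 without it. Centring the arrays moved the knockout-labelled median of all probe sets from -0.12 to 0.10 and the share of its calls that were rises from 35.6% to 70.4%. Relative to that median, the T cell genes stood at 0.42 and the B cell genes at -0.43, with or without centring. Centring shifts all probe sets of an array alike, so it cannot change these distances and is no test of them. With quantile normalisation, which can change them, the distances were 0.54 for T cell genes and -0.35 for B cell genes. These medians are descriptions of the lists and carry no test.

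**Figure D1:**
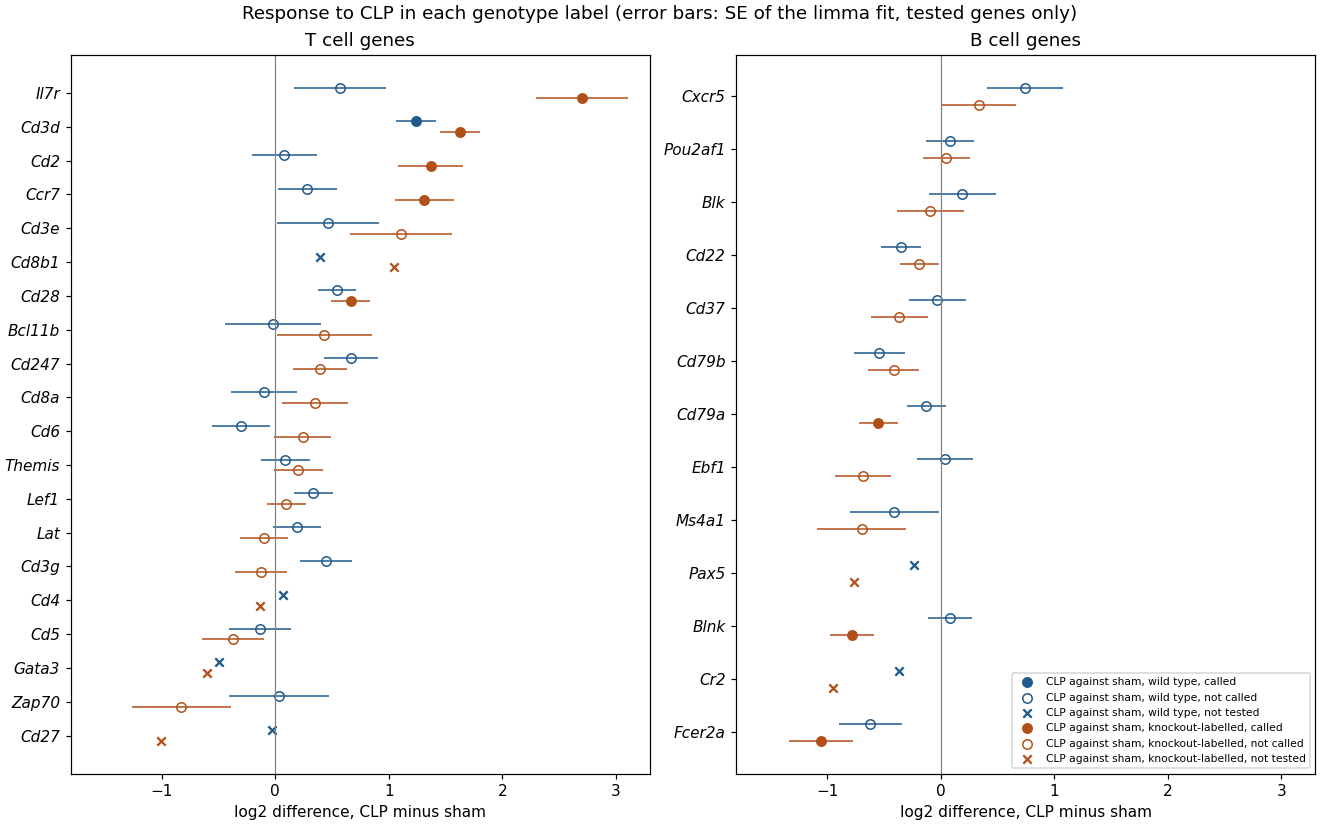
Log2 difference between CLP and sham for each of 20 T cell genes and 13 B cell genes, in wild-type (blue) and knockout-labelled (orange) lungs. Filled points were called, open points were not, crosses were not tested, and bars are standard errors of the limma fit. The T cell genes called in knockout-labelled lungs lie between 0.66 and 2.70 and the B cell genes called there between -1.05 and -0.55.

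Among the chains of the T cell receptor complex, Cd3d, the delta chain of CD3, responded most. Its signal was 153, 115 and 127 on the wild-type sham arrays and 337, 292 and 316.5 after CLP. In knockout-labelled lungs it was 123, 114 and 173 after sham and 419, 506 and 356 after CLP. All 6 CLP arrays lay above all 6 sham arrays, by 2.37-fold in the wild type (log2 difference 1.24 ± 0.18 SE, adjusted p = 0.005716) and 3.09-fold in knockout-labelled lungs (1.63 ± 0.18, adjusted p = 1.14e-04).

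In the fits with all arrays the other chains differed less than Cd3d, and no test between chains was made. Cd247, the zeta chain that carries most of the signalling motifs, gave 45.4, 39.3 and 35.7 in wild-type sham and 73.2, 70.9 and 54.5 after CLP. Its knockout-labelled signals were 51.0, 27.3 and 54.0 after sham and 50.9, 60.1 and 59.7 after CLP, where the groups overlap. It was called for CLP averaged over both genotypes (0.53 ± 0.17, adjusted p = 0.04177), and this call held in 4 of 12 fits that each left out 1 array. It was lost, with adjusted p of 0.05902 to 0.09791, when any 1 of the wild-type sham arrays was omitted, when CLP array 1 or 2 of the wild type was, when CLP array 2 or 3 of the knockout-labelled lungs was, and when their sham array 2 was. With no filter (adjusted p = 0.07731) or a replicate block (adjusted p = 0.055) it was lost as well. Cd3e, the epsilon chain, gave 35.8 to 82.0 in wild-type sham, 53.7 to 92.7 in wild-type CLP, 13.4 to 72.6 in knockout-labelled sham and 58.7 to 85.6 after CLP. Its difference in knockout-labelled lungs, 1.11 ± 0.45, was not called (adjusted p = 0.08015). Leaving out array 3 of that sham group made it 1.68 (adjusted p = 0.003655), and it was also called with quantile normalisation (adjusted p = 0.04705) and with centred arrays (adjusted p = 0.03758). Cd3g, the gamma chain, differed by 0.45 ± 0.23 in the wild type and -0.13 ± 0.23 in knockout-labelled lungs, neither called.

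**Figure D2:**
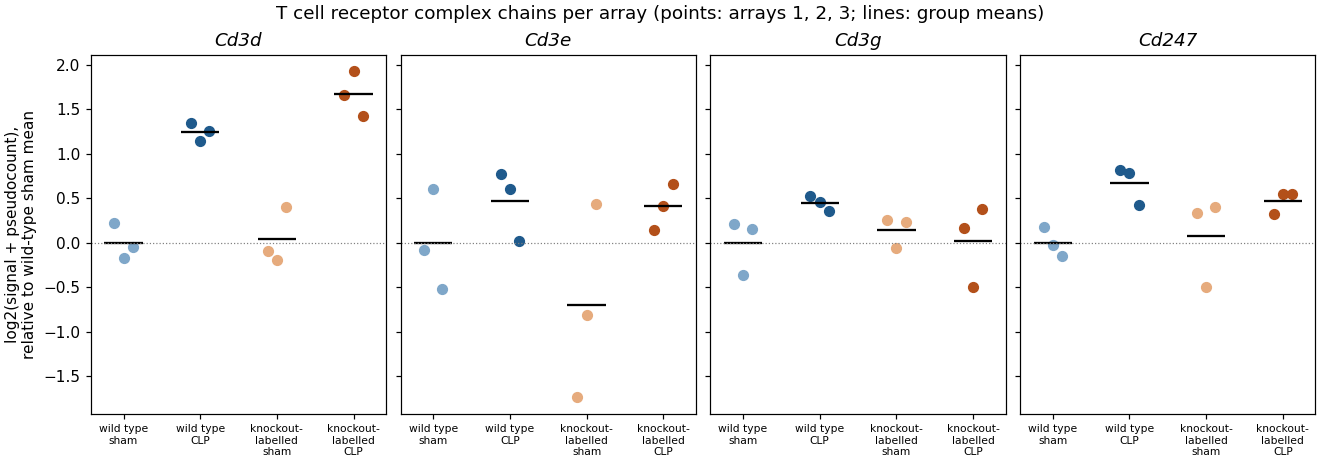
Log2 signal of the 4 chains of the T cell receptor complex on each array, relative to the mean of wild-type sham. Points are arrays 1, 2 and 3 from left to right and lines are group means. Cd3d lies between 1.14 and 1.92 on the 6 CLP arrays, and the other chains reach at most 0.82 there.

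Set against the mean of the other 3 chains on the same array, Cd3d was at -0.25 to 0.13 in wild-type sham and 0.52 to 0.99 after CLP. In knockout-labelled lungs it was at 0.04 to 0.30 after sham and 0.90 to 1.77 after CLP. The CLP arrays of either genotype thus lay above all sham arrays in this contrast between chains, which was chosen after the values were seen and carries no test.

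Cd3d and Cd3g are neighbours on chromosome 9, read in opposite directions from starts 1355 bases apart, and their promoters are shown because these neighbouring genes gave different responses. The Cd3d window is chr9:44981536-44981835 on the plus strand and the Cd3g window chr9:44980382-44980681 on the minus strand. Il7r, the T cell gene with the largest response in knockout-labelled lungs, is at chr15:9529827-9530126 on the minus strand. Each window runs 5′ to 3′ along its gene, from 250 bases before the start to 50 after it, in RefSeq on GRCm38.p6.
Cd3d promoter: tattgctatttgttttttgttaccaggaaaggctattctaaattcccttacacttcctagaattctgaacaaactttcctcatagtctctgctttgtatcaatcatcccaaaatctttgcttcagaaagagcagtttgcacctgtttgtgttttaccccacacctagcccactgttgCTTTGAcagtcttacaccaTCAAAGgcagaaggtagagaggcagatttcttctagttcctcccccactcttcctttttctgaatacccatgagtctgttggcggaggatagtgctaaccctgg
Cd3g promoter: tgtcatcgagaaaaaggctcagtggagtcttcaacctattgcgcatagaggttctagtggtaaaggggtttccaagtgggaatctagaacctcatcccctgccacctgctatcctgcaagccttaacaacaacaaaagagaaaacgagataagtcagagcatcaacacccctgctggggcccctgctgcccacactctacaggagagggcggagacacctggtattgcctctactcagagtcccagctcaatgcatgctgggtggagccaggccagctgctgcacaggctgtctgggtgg
Il7r promoter: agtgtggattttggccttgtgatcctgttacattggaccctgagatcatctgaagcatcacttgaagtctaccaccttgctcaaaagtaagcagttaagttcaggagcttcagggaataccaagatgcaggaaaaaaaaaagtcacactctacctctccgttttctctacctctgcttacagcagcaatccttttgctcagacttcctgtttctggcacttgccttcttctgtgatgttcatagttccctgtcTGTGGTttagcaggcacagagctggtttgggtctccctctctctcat
Capitals mark a TCF/LEF motif (CTTTGA, or TCAAAG on the other strand) in Cd3d and a RUNX motif (TGTGGT, or ACCACA on the other strand) in Il7r. The Cd3d window holds the TCF/LEF letters at 73 and 54 bases before the start, once on each strand, and the Cd3g window holds no motif searched. The TCF/LEF letters were in 6 of 20 windows of T cell genes and 1 of 12 of B cell genes, where 5257 of all 32851 promoter windows hold them. The RUNX letters were in 3 of 20 and 2 of 12, against 16.8% of all. RefSeq windows were found for 23 of the 33 genes, and some genes have more than 1.

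The coreceptors that set helper and killer T cells apart gave no call. Cd4, the helper coreceptor, read 2.72 to 7.07 on all 12 arrays, far below the array medians, so it gives no information on helper T cells here. Cd8a, a chain of the killer cell coreceptor, read 25.5 to 42.3 in wild-type sham, 28.0 to 37.3 in wild-type CLP, 14.99 to 36.1 in knockout-labelled sham and 29.9 to 36.0 after CLP, with all groups overlapping. Its partner chain Cd8b1 read 2.66 to 35.2 over all arrays.

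Cd2 and Cd28, which help T cells bind partner cells and take up costimulation, rose after CLP in knockout-labelled lungs. Cd2 gave 42.3, 29.5 and 86.9 in knockout-labelled sham and 119.7, 147 and 124 after CLP, 2.59-fold (1.37 ± 0.29, adjusted p = 0.004187). In the wild type it gave 88.7, 80.6 and 76.0 after sham and 91.5, 71.4 and 99.1 after CLP, which overlap. The 2 low sham arrays of the knockout-labelled group lie below every wild-type array, and the third is level with them. The rise averaged over both genotypes held in 6 of 12 fits that left out 1 array. It was lost (adjusted p = 0.05316 to 0.06454) when wild-type sham array 2 or 3 or CLP array 1 or 3 was omitted, and when sham array 1 or CLP array 2 of the knockout-labelled lungs was.

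Cd28, the main costimulatory receptor, moved by similar amounts in both genotypes. It gave 71.4, 69.1 and 64.6 in wild-type sham and 116.5, 104 and 85.8 after CLP, with no overlap (0.55 ± 0.17, adjusted p = 0.2445). The knockout-labelled arrays gave 61.2, 65.6 and 64.1 after sham and 83.9, 128 and 101 after CLP (0.66 ± 0.17, adjusted p = 0.01167). Averaged over both genotypes the difference was 0.60 ± 0.12 (adjusted p = 0.004991), and this call held in all 12 fits that left out 1 array. A second Cd28 probe set gave 1.43 in knockout-labelled lungs (adjusted p = 0.0221). Without array 2 of knockout-labelled CLP the first probe set was not called there (adjusted p = 0.0538).

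The remaining surface molecules of this kind were not called. Cd5 and Cd6, receptors that dampen or tune the receptor signal, differed by -0.37 and 0.24 in knockout-labelled lungs. Cd27, a costimulatory receptor of the tumour necrosis factor family that was not tested, read 22.8 to 45.8 in knockout-labelled sham and 10.6 to 19.1 after CLP, without overlap, and 22.0 to 32.7 on the wild-type arrays.

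The receptors that guide T cell survival and homing gave large T cell differences beside that of Cd3d. Il7r, the receptor chain for interleukin 7, which keeps naive and memory T cells alive and is also made by innate lymphoid cells, read 92.2, 64.4 and 88.6 in wild-type sham and 124, 116 and 125 after CLP. In knockout-labelled lungs it read 31.5, 51.5 and 150.0 after sham and 305, 526.5 and 494 after CLP. Every array of knockout-labelled CLP lay above all other arrays. The response there was 6.51-fold (2.70 ± 0.41, adjusted p = 6.995e-04), and in the wild type 0.57 ± 0.41 (adjusted p = 0.8201). A second Il7r probe set gave 2.48 and 0.67 for the same comparisons. Array 3 of knockout-labelled sham was the high one of its group, and without it the knockout-labelled response was 3.31.

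Ccr7, the chemokine receptor that brings naive T cells and migrating dendritic cells to lymph nodes, read 90.2, 86.6 and 97.3 in wild-type sham and 125, 97.8 and 114 after CLP. In knockout-labelled lungs it read 50.2, 72.5 and 91.6 after sham and 112, 223 and 224 after CLP, with array 1 of CLP the lowest of its group and above all 3 sham arrays. The response was 2.49-fold in knockout-labelled lungs (1.31 ± 0.26, adjusted p = 0.003128) and 0.28 ± 0.26 in the wild type (adjusted p = 0.8858). The dendritic cell list, which also contains Ccr7, summed to 433 to 636.5 in knockout-labelled sham and 687 to 742 after CLP, against 486 to 504 and 451.5 to 493 in the wild type. That sum includes the rise of Ccr7 itself, the only 1 of the 3 tested genes of the list that was called in knockout-labelled lungs. The list median there was -0.15. The part of dendritic cells in the Ccr7 result was not tested.

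Kinases, adaptors and transcription factors of T cells were mostly not called. Zap70, the kinase that binds the phosphorylated CD3 chains, differed by -0.82 ± 0.44 in knockout-labelled lungs, and its other probe sets gave 0.23 and -0.16. With array weights it was called lower there (-1.62, adjusted p = 0.00832). Themis, an adaptor of T cell selection, stayed within 0.21 of 0 in both CLP responses. Lef1, a transcription factor of naive T cells, differed by 0.34 ± 0.17 in the wild type and 0.10 ± 0.17 in knockout-labelled lungs. Bcl11b, a factor that holds T cell identity, read 68.8 to 98.2 in wild-type sham and 12.5 to 73.0 in knockout-labelled sham. Gata3, a factor of helper T cells that was not tested, read 10.8 to 46.0 over all arrays.

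Of the signalling chains of the B cell receptor, Cd79a fell with CLP in knockout-labelled lungs and Cd79b was not called. Cd79a gave 121, 108 and 105 in knockout-labelled sham and 62.0, 83.5 and 80.6 after CLP, a fall of 1.47-fold (-0.55 ± 0.17, adjusted p = 0.02998). In the wild type it gave 182, 127 and 143 after sham and 159, 132 and 119 after CLP, which overlap. The knockout-labelled fall was not called with quantile normalisation, with centred arrays, with no filter or with only its 2 groups fitted, where the adjusted p reached 0.1807. It was also lost without array 1 or 2 of knockout-labelled sham (adjusted p = 0.09289 and 0.06241) or array 1 of knockout-labelled CLP (adjusted p = 0.08845). Wild-type lungs gave Cd79b signals of 417, 194 and 378 after sham and 230.1, 206 and 206 after CLP. It gave 221, 192 and 194 in knockout-labelled sham and 146, 168 and 139 after CLP. Array 2 of wild-type sham was the low one of its group for Cd79b, Blnk and Blk alike. Without it Cd79b was called lower after CLP in the wild type (-0.88, adjusted p = 0.01648), where it otherwise was not (-0.54 ± 0.22, adjusted p = 0.4884).

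Blnk, the adaptor that joins the receptor to its downstream enzymes, fell clear of all other groups. It gave 134, 166 and 153 in knockout-labelled sham and 77.8, 88.7 and 92.7 after CLP, below the 9 arrays of the other groups. The fall was 1.72-fold (-0.78 ± 0.19, adjusted p = 0.009739), and it was called in all 12 fits that left out 1 array and in all 11 other settings. Blnk in the wild type gave 191, 107 and 177 after sham and 170.0, 172 and 148 after CLP (0.08 ± 0.19). Blk, a kinase of the same receptor, differed by 0.19 ± 0.30 in the wild type and -0.09 ± 0.30 in knockout-labelled lungs.

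The promoters of Blnk (chr19:40994172-40994471, minus strand) and Cd79a (chr7:24897247-24897546, plus strand) are shown as those of the receptor genes called in both the CLP and the genotype comparison.
Blnk promoter: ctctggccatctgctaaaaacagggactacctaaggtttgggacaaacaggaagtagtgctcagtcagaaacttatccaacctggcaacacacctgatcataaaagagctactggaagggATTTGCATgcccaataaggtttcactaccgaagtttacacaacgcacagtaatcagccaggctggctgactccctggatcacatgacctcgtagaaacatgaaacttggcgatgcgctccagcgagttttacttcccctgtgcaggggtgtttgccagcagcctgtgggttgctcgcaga
Cd79a promoter: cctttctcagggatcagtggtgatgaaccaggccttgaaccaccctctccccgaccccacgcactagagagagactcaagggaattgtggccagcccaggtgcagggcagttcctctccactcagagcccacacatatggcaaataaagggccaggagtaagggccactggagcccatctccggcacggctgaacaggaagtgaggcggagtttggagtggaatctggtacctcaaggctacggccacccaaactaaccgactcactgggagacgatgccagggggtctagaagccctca
Capitals in Blnk mark the octamer (ATGCAAAT, or ATTTGCAT on the other strand), a motif known from immunoglobulin promoters, which lies 130 bases before the start. It was in 1 of 12 B cell windows and 0 of 20 T cell windows, and in 1.74% of all windows. The Cd79a window holds none of the 4 motifs searched. The letters TCCCNNGGG (or CCCNNGGGA on the other strand), used for the factor EBF1, were in 1 of 12 B cell windows, that of Cd22, and in 6.56% of all.

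Fcer2a, the low-affinity IgE receptor of mature B cells, fell after CLP. It gave 62.5, 41.5 and 50.2 in knockout-labelled sham and 22.3, 27.4 and 18.9 after CLP (-1.05 ± 0.28, adjusted p = 0.01401). Without array 1 of that sham group it was not called (adjusted p = 0.05562). In the wild type it gave 72.8, 47.8 and 52.7 after sham and 54.6, 33.6 and 24.8 after CLP, with 1 array overlapping (-0.62 ± 0.28, adjusted p = 0.5709). Averaged over both genotypes the fall was 1.79-fold (-0.84 ± 0.20, adjusted p = 0.01175), called in all 12 fits that left out 1 array. The CLP signals in knockout-labelled lungs lie below the array medians.

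The other surface molecules of B cells were not called. Ms4a1, which encodes CD20, gave 104.5, 117 and 403.5 in knockout-labelled sham, where array 3 was the highest of all 12 arrays, and its second probe set gave 49.7, 48.6 and 127 on the same arrays. Its other groups lay at 83.4 to 144. Cd22, an inhibitory coreceptor, read 101 to 189 over all arrays, and Cr2, a complement receptor that was not tested, 3.68 to 45.5. Cxcr5, the receptor that leads B cells into follicles, read 12.7 to 22.4 in wild-type sham and 28.1 to 34.5 after CLP, without overlap (0.74 ± 0.33, adjusted p = 0.5667). Cd37, a tetraspanin of mature B cells, differed by -0.20 ± 0.18 averaged over both genotypes, while its second probe set was called higher (0.59, adjusted p = 0.0271), so its direction depends on the probe set.

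Among B cell transcription factors, Ebf1, which sets the B cell programme, differed by -0.69 ± 0.25 with CLP in knockout-labelled lungs, which was not called (adjusted p = 0.05362), and by 0.04 ± 0.25 in the wild type. A second Ebf1 probe set was called lower in the former comparison (-0.93, adjusted p = 0.04736), and 2 others were not (-0.26 and -0.40). Pou2af1, the coactivator that works with octamer-binding factors, differed by 0.08 and 0.05 in the 2 CLP responses. Pax5, the factor that commits cells to the B lineage and was not tested, read 13.2 to 40.5 over all arrays.

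**Figure D3:**
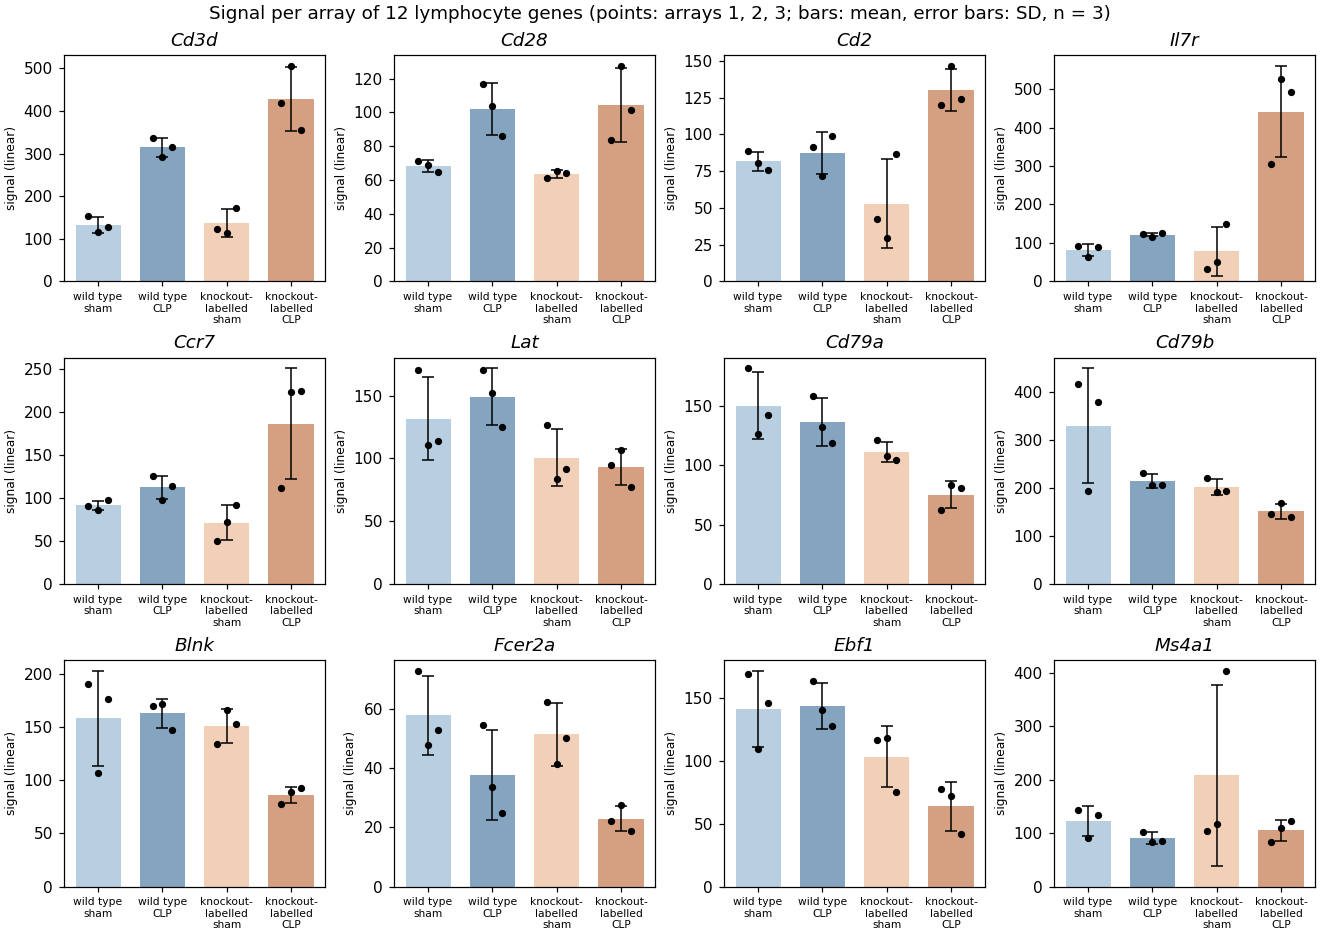
Linear signal on each array (points), group mean (bar) and SD (error bar, n = 3) for 12 lymphocyte genes in the 4 groups. Cd3d is higher on all CLP arrays, Il7r is at 305 or more on all arrays of knockout-labelled CLP and at 150.0 or less elsewhere, and Blnk is at most 92.7 on all arrays of knockout-labelled CLP.

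The T and B cell lists stood further apart after CLP than after sham. The mean log2 signal of the 20 T cell genes, relative to wild-type sham, was 0.05, -0.11 and 0.06 in wild-type sham and 0.31, 0.23 and 0.12 after CLP. In knockout-labelled lungs it was -0.49, -0.35 and 0.19 after sham and 0.14, 0.20 and 0.26 after CLP. The means after CLP were 0.22 ± 0.09 (SD, n = 3) in the wild type and 0.20 ± 0.06 in knockout-labelled lungs, while the knockout-labelled sham arrays were spread most widely.

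The B cell mean over 13 genes was lowest in knockout-labelled CLP. In the wild type it was 0.34, -0.35 and 0.01 after sham and -0.03, -0.17 and -0.16 after CLP. It was -0.04, -0.15 and 0.07 in knockout-labelled sham and -0.61, -0.44 and -0.49 in knockout-labelled CLP, the last below every other array. This mean includes Pax5 and Cr2, which did not pass the filter, and Cr2 read 3.68 on array 2 of knockout-labelled CLP. That this array lay below array 2 of wild-type sham (-0.35) rests on those genes. The T cell mean minus the B cell mean was 0.00 ± 0.27 (SD, n = 3) in wild-type sham, 0.34 ± 0.06 in wild-type CLP, -0.18 ± 0.29 in knockout-labelled sham and 0.72 ± 0.06 after CLP. Each CLP array was above each sham array in this difference, and the knockout-labelled CLP arrays (0.65 to 0.75) were above the wild-type CLP arrays (0.28 to 0.40). Since the genes were chosen with results known, no test is given.

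**Figure D4:**
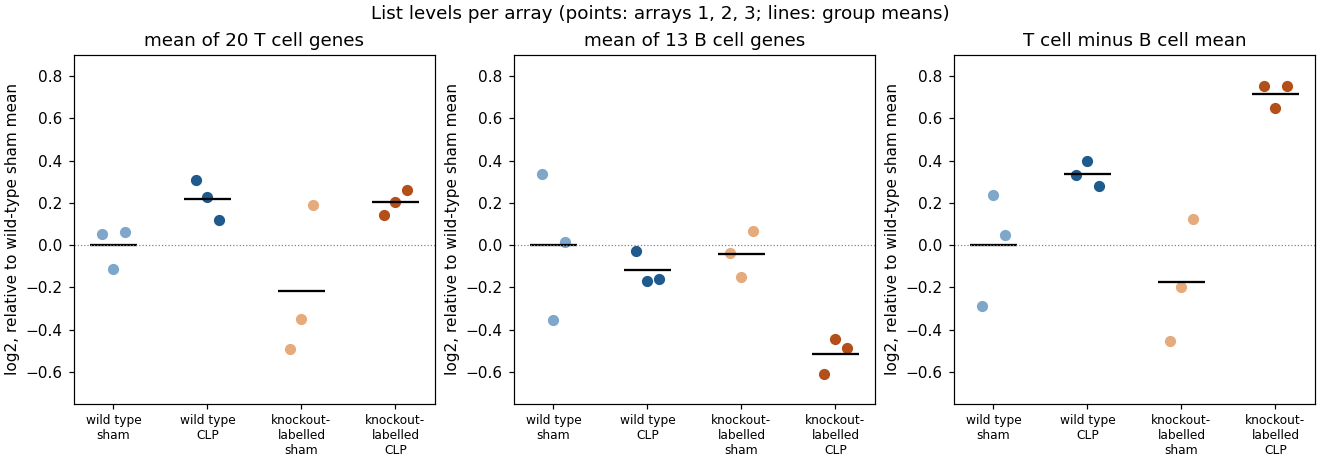
Mean log2 signal of 20 T cell genes, of 13 B cell genes, and their difference on each array, relative to the mean of wild-type sham. Points are arrays 1, 2 and 3 and lines are group means. The difference is 0.28 to 0.75 on the 6 CLP arrays and -0.45 to 0.24 on the 6 sham arrays.

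The CLP response itself was not called different between the genotypes for any of the 27 tested genes by limma, where 1.69% of all probe sets were called with a higher and 2.36% with a lower response in knockout-labelled lungs. At an unadjusted p under 0.05 there were 4 genes. Il7r came closest (2.13 ± 0.57, adjusted p = 0.05635), followed by Cd2 (1.29 ± 0.40, adjusted p = 0.08815), Blnk (-0.86 ± 0.27, adjusted p = 0.08877) and Ccr7 (1.03 ± 0.37, adjusted p = 0.1225). For Cd3d the difference of responses was 0.38 ± 0.25 (adjusted p = 0.3866). When array 3 of the knockout-labelled sham group was left out, 3 genes were called, namely Il7r (2.73, adjusted p = 7.632e-04), Cd2 (1.70, adjusted p = 0.002512) and Ccr7 (1.22, adjusted p = 0.04187). Without array 1 of knockout-labelled CLP, Il7r and Ccr7 were called. Il7r was also called with centred arrays, a larger pseudocount, a replicate block or the mean of its probe sets. Array weights gave the most calls, 6, with a higher response of Cd3d, Cd2, Il7r and Ccr7 and a lower one of Zap70 and Blnk in knockout-labelled lungs. Whether these responses are called different between the genotypes thus depends on those arrays and settings.

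After sham surgery no lymphocyte gene was called different between the genotypes by limma, with 4 at an unadjusted p under 0.05, while 4.48% of all probe sets were called higher and 3.86% lower in knockout-labelled lungs. The 4 were Bcl11b (-1.10 ± 0.42), Cd2 (-0.73 ± 0.29), Cd79a (-0.41 ± 0.17) and Cd79b (-0.62 ± 0.22). The T cell median was -0.23 and the B cell median -0.07, against 0.01 for all probe sets. On array 3 of this knockout-labelled group, 13 of the 20 T cell genes were the highest of the 3 arrays. Without it, 4 T cell genes were called lower, namely Cd3e, Cd2, Il7r and Bcl11b, as they also were with array weights.

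After CLP, Il7r was higher and Lat, Cd79a, Blnk and Ebf1 were lower in knockout-labelled than in wild-type lungs, where 12.6% of all probe sets were called higher and 16.9% lower. The number called, 5 of 27 tested, became 8 without array 3 of knockout-labelled sham, which added Cd3d, Cd2 and Ccr7 as higher. It was also 8 with only the 2 groups fitted, which added Cd2 as higher and Bcl11b and Cd79b as lower. With array weights it was 9, adding Cd3d, Cd2 and Ccr7 as higher and Cd3g as lower. These comparisons share the knockout-labelled CLP arrays with the response described above. Il7r was 3.46-fold higher (1.79 ± 0.41, adjusted p = 0.006167), with its second probe set at 1.89. Lat, the adaptor that gathers the signalling enzymes of the T cell receptor, gave 170.1, 152 and 125 in the wild type and 95.1, 107 and 77.5 in knockout-labelled lungs (-0.66 ± 0.21, adjusted p = 0.03103). It was called in 9 of 12 fits that left out 1 array, and was lost when CLP array 1 or 2 of the wild type or CLP array 3 of the knockout-labelled lungs was omitted (adjusted p = 0.1121, 0.08964 and 0.1051).

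Of the 11 tested B cell genes, 3 were called lower in this comparison, Cd79a, Blnk and Ebf1, against 16.9% of all probe sets. Cd79b, Blk, Cd22 and Ms4a1 were among those not called. Of the 13 B cell genes, 11 differed downwards and 2 upwards, among them Ms4a1 (0.20). The second Ms4a1 probe set gave 0.68 without overlap between arrays, also not called. Cd79a was 1.78-fold lower (-0.83 ± 0.17, adjusted p = 0.003739) and Blnk 1.86-fold lower (-0.89 ± 0.19, adjusted p = 0.004715), with no overlap between arrays. Ebf1 gave 164, 140.3 and 128 in the wild type and 77.4, 72.1 and 41.8 in knockout-labelled lungs, 2.25-fold lower (-1.17 ± 0.25, adjusted p = 0.00427). A second Ebf1 probe set was also called (-1.52, adjusted p = 0.00453), and 2 others were not (-0.58 and -0.29). These 3 genes were called in all 12 fits that left out 1 array and in all 11 other settings. After sham Ebf1 gave 169, 109 and 146 in the wild type and 116, 118 and 75.4 in knockout-labelled lungs. The medians over the lists were -0.09 for T cell and -0.33 for B cell genes, against -0.05 for all probe sets. Lung fibroblasts and pericytes also make Ebf1, and 4 of their 6 markers were called lower in the same comparison (Pdgfrb, Cspg4, Notch3 and Col1a1, at -1.37 to -0.59), and their part in the Ebf1 result was not tested.

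**Figure D5:**
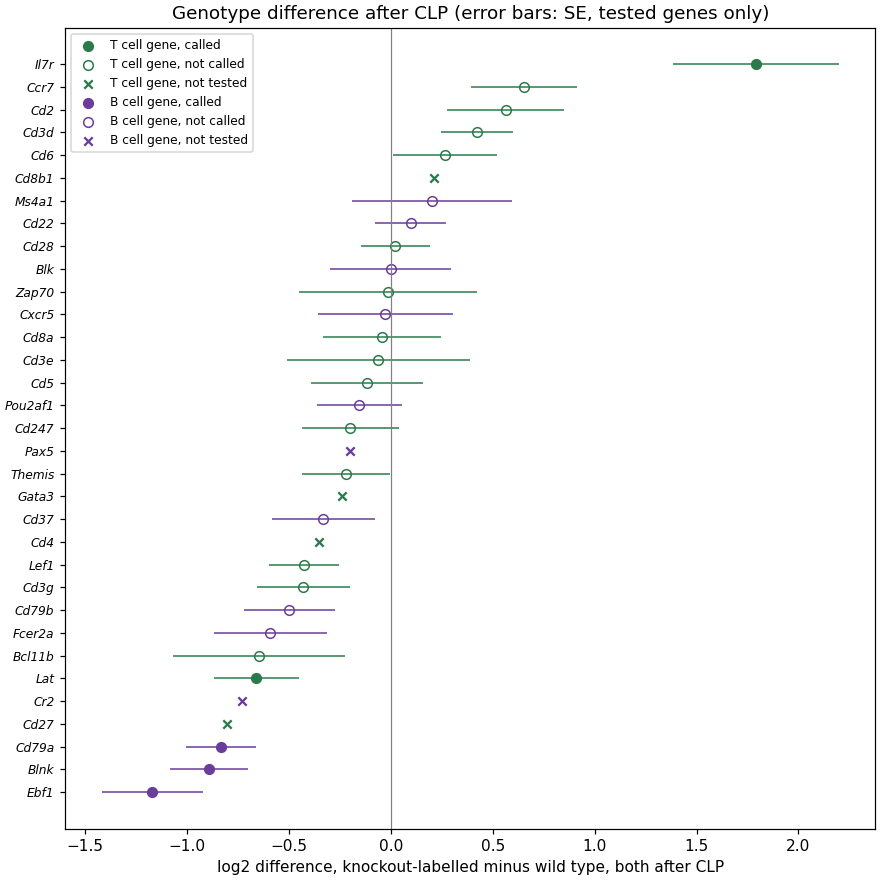
Log2 difference between knockout-labelled and wild-type lungs after CLP for 33 lymphocyte genes, sorted by size. Filled points were called, open points were not, crosses were not tested, and bars are standard errors. Il7r lies at 1.79, and the B cell genes Ebf1, Blnk and Cd79a lie lowest at -1.17, -0.89 and -0.83.

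Further genes of the same pathways were read from lists of their own. Of 27 T cell receptor pathway genes, 24 had a probe set and 16 were tested. In the wild type 2 rose after CLP, against 0.814% of all probe sets. They were Ptpn22, a phosphatase that dampens the receptor signal (1.24 ± 0.17), and Ctla4, an inhibitory receptor (1.97 ± 0.31). Ctla4 was lost without CLP array 1 or 2 or sham array 1 of the wild type (adjusted p up to 0.07827). In knockout-labelled lungs 9 rose and 0 fell, against 10.4% and 18.8% of all probe sets. The smallest p were those of Ptpn22 (1.71 ± 0.17), the kinase Txk (1.99 ± 0.23), the adaptor Lcp2 (2.23 ± 0.28) and the transcription factor Ets1 (0.89 ± 0.12). Txk passed the filter only through knockout-labelled CLP, where it is high, so its value is a description. Icos, also among the 9, exceeded the array median on only 4 arrays. Myeloid cells also make Lcp2. The list medians were 0.22 and 0.42.

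Of 27 B cell receptor pathway genes, 24 had a probe set and 22 were tested. None was called in the wild type by limma, with 4 at an unadjusted p under 0.05. In knockout-labelled lungs 6 rose and 3 fell, against 10.4% and 18.8% of all probe sets. Those that rose with the smallest p were Fcgr2b, an inhibitory Fc receptor (2.96 ± 0.29), the adaptor Pik3ap1 (2.14 ± 0.26), the activation marker Cd83 (2.83-fold) and the kinase Syk (1.59 ± 0.22), which macrophages or dendritic cells make as well. Those that fell were Ralgps2 (-1.05 ± 0.16), Ciita, the master regulator of MHC class II (-0.86 ± 0.25), and Vpreb3, a B lineage gene (-0.69 ± 0.23). Ciita exceeded the array median on only 5 of the 12 arrays, so its fall is given as a description. The falls of Ciita and Vpreb3 were not called with quantile normalisation or centring (adjusted p = 0.06691 to 0.1506). Vpreb3 held in 3 of 12 fits that left out 1 array, those that omitted a wild-type CLP array, and otherwise had adjusted p of 0.05037 to 0.1101, and Ciita was lost without array 1 of the sham group (adjusted p = 0.08751) or array 3 of the CLP group of the knockout-labelled lungs (adjusted p = 0.05224). The list medians were -0.01 and 0.13.

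Of 20 trafficking genes, 17 had a probe set and 14 were tested, and none was called in the wild type by limma, with 4 at an unadjusted p under 0.05. In knockout-labelled lungs 4 rose, where 10.4% of all probe sets were called higher and 18.8% lower. They were the receptor Gpr18 (2.16 ± 0.42), the actin regulator Coro1a, which all leukocytes make (0.87 ± 0.21), S1pr1 (0.78 ± 0.20) and the chemokine receptor Cxcr6 (0.79 ± 0.25). S1pr1 lets lymphocytes leave lymphoid organs. Its mean log2 signal, 9.42, was above that of every T and B cell member (at most 7.81, Cd3d), and its cell source was not tested. The integrin Itga4 was called lower (-0.35 ± 0.12) but held in 2 of 12 fits that left out 1 array, those that omitted wild-type sham array 1 or 3, and in 4 of 11 other settings, with adjusted p up to 0.4749. Cxcr6 was lost without CLP array 2 or 3 or sham array 1 or 2 of the knockout-labelled lungs (adjusted p up to 0.112). Of 21 activation genes, 20 had a probe set and 12 were tested. With CLP 1 rose in the wild type and 5 in knockout-labelled lungs, against 0.814% and 10.4% of all probe sets. Cd69, an early activation marker, rose in both genotypes (2.09 ± 0.42 and 2.27 ± 0.42), and in knockout-labelled lungs Myc, Batf and Havcr2 rose as well (1.60, 1.83 and 1.26), and Tnfrsf9, given below by its values, was also called. The wild-type Cd69 call was lost on omitting any 1 wild-type array or sham array 2 of the knockout-labelled lungs (adjusted p up to 0.2037), and with no filter, no intensity trend or a replicate block, while the knockout-labelled one held throughout. Havcr2 was lost without CLP array 2 or 3 or sham array 1 or 2 of the knockout-labelled lungs (adjusted p up to 0.0751). It exceeded the array median on only 4 of the 12 arrays, so its value is given as a description.

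Between the genotypes after CLP, the T cell receptor list had 4 of 16 tested genes higher and 0 lower in knockout-labelled lungs, and the B cell receptor list 6 of 22 higher and 1 lower. The trafficking list had 5 of 14 higher and 2 lower, and the activation list 4 of 12 higher and 1 lower, against 12.6% and 16.9% of all probe sets. Tnfrsf9, a costimulatory receptor of activated lymphocytes, passed the filter only through the group where it is high. It gave 51.4, 147 and 215 in knockout-labelled CLP and 2.49 to 34.1, at or below the array medians, on the other 9 arrays, so it is given as a description. Pou2f2, among the 6 of the B cell receptor list, passed the filter in the same way (35.3 to 54.0 in knockout-labelled CLP and 16.03 to 29.4 elsewhere). So did Txk, among the 4 of the T cell receptor list. Icos of the same 4, Ccr9 of the trafficking list and Havcr2 of the activation list each exceeded the array median on only 4 arrays. Their part in these counts is therefore a description as well. Cxcl13, the chemokine that draws B cells through Cxcr5, was higher in knockout-labelled CLP (1.67 ± 0.37, adjusted p = 0.005461), while Cxcr5 itself differed by -0.03 ± 0.33.

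Markers of other cells moved with these results. The 7 neutrophil markers summed to 8879 to 15180 in wild-type sham and 32990 to 35870 after CLP, and to 10210 to 26510 and 36270 to 40440 in knockout-labelled lungs. The 5 pan-leukocyte markers summed to 3169 to 4209 and 5979 to 7154 in the wild type and to 3873 to 6752 and 8150 to 11790 in knockout-labelled lungs. Of the plasma cell list, 5 of 6 markers were tested and 3 were called higher in knockout-labelled CLP than in wild-type CLP, against 12.6% of all probe sets. Among them was Jchain, the joining chain of secreted antibody (2.82, adjusted p = 8.056e-04). Jchain gave 235 to 285 in wild-type CLP and 1618 to 2562 in knockout-labelled CLP, and array 3 of knockout-labelled sham read 2583 against 625 and 582 on the other arrays.

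Of the 8 natural killer cell markers, 7 had a probe set and summed to 579 to 949.7 over all groups. Among the 5 tested, 1 was called lower after CLP than after sham in knockout-labelled lungs, against 18.8% of all probe sets. It was Klrd1 (-0.58, adjusted p = 0.0329 in limma). Of the 6 markers of type 2 innate lymphoid cells, which also make Il7r and Gata3, 4 had a probe set and 1 was tested, and they summed to 547 to 678 over all arrays with no call for CLP. Thymocyte markers, among them Rag1 and Rag2, summed to 19.95 to 54.8 over all arrays and none passed the filter. Endothelial markers summed to 9789 to 10610 in wild-type lungs and 7215 to 8578 in knockout-labelled ones. The ratio of signal at the 3-prime end to the 5-prime end of beta-actin, which reports on RNA integrity, was 1.38 ± 0.0903 (SD, n = 3) in knockout-labelled CLP and 1.51 to 1.53 in the means of the other groups. Pericyte and fibroblast markers summed to 5127 to 5373 in wild-type lungs and 3602 to 4586 in knockout-labelled ones, with 4 of 6 called lower after CLP (median -0.60) and 3 of 6 after sham (median -0.46). Of 6 monocyte and macrophage markers, 3 were called higher in knockout-labelled than in wild-type CLP (median 0.75), while their sums were 12090 to 12220 in wild-type CLP and 11480 to 13120 in knockout-labelled CLP. Lung epithelial markers had 3 of 6 called lower in that comparison (median -0.19). Over all probe sets, 12.6% were called higher and 16.9% lower in knockout-labelled than in wild-type CLP, and 3.86% lower after sham. The part of these shifts in the lymphocyte results was not tested.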

How the data were processed

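Biotin-labelled cRNA of total lung RNA was hybridised to Affymetrix 3-prime arrays, 1 sample per array, 12 in all. Each deposited value is a probe set's intensity on a linear scale. GCOS, MAS5 and Affymetrix Expression Console are named without versions or order, per the submitters' processing notes. The mean between the lowest and highest 2% was 150.001 on every array, so the authors had scaled the signal. The number of arrays limits the precision.

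Of 45101 probe sets, 64 controls were left out. The platform annotation gave 34945 of the rest 1 symbol, 932 several and 9160 none. A pseudocount of 3.47, 10% of the median array median (34.7), was added before log2. The 24574 probe sets whose signal exceeded the array median on 3 or more of the 12 arrays were fitted in limma 3.58.1 (R 4.3.3) with 4 group means and a moderated variance with intensity trend. P-values were adjusted by Benjamini-Hochberg over all probe sets tested, and the fit was tested on simulated data. Members with a call are given in full and others by value. Of the pathway lists, the called genes with the 4 smallest p and those against their list's direction are named for CLP. Promoters come from RefSeq (GRCm38.p6). The members and lists were chosen with earlier results of these data known. Alternatives were quantile normalisation, centring, a 50% pseudocount, no filter or 9 arrays, no trend, array weights, a replicate block, suffixed probe sets left out, only the 2 groups compared, the mean of probe sets, and each array left out.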

Additional observations from a re-analysis of the deposited data

Results flagged for a closer look

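Of the pathway genes read beside the lymphocyte members, 5 had a CLP response that was called different between the genotypes by limma, which is why they are listed here. Over all probe sets tested, 1.69% were called with a higher and 2.36% with a lower response in knockout-labelled lungs. Each difference is given on the log2 scale and is positive where knockout-labelled lungs responded more strongly upwards. Txk, a T cell kinase, differed by 1.95. It exceeded the array median on 5 arrays and passed the filter only through knockout-labelled CLP, where it is high. Txk is therefore given as a description. In the wild type its signal was 31.4, 36.2 and 28.1 after sham and 34.4, 28.4 and 35.4 after CLP. It was 12.5, 14.5 and 19.2 in knockout-labelled sham and 54.4, 90.1 and 71.4 in knockout-labelled CLP. Fcgr2b, the inhibitory Fc receptor, differed by 2.39 (adjusted p = 0.01422), with wild-type signals of 336, 314 and 304 after sham and 564, 399.9 and 471 after CLP, and 126, 258.5 and 329.9 in knockout-labelled sham and 1295, 1884 and 2185 in knockout-labelled CLP. Fcgr2b was called in 11 of 12 fits that each left out 1 array.

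The other 3 held less often. Ets1, a lymphocyte transcription factor that endothelium also makes, differed by 0.75 (adjusted p = 0.03297), Ralgps2 by -1.04 (adjusted p = 0.02994) and Cxcr6 by 1.52 (adjusted p = 0.03622). They were called in 2, 4 and 2 of the 12 fits. Ralgps2 gave 51.6 to 70.7 in knockout-labelled CLP, below the 82.1 to 132 of all other arrays.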

How the results depend on the processing

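With 3 arrays a group, 1 array can decide a call. Of 252 fits of called members that left out 1 array, 230 kept the call and 22 lost it, and of 222 under other settings 214 kept it and 8 lost it, with no change of direction. The member counts ranged over the fits without 1 array from 1 to 2 in wild-type CLP, from 0 to 3 for the difference of responses, from 0 to 4 for genotype after sham and from 4 to 8 for genotype after CLP. For CLP averaged over both genotypes, Cd2 was called in 6 of these 12 fits. Array weights gave 2, 6, 4 and 9 for these and 12 for CLP averaged over both genotypes. Wild-type CLP and sham genotype gained Cd79b without array 2 of wild-type sham. Among the fits without 1 array, those without array 3 of knockout-labelled sham gave the largest counts for the difference of responses, for sham genotype and for genotype after CLP. The difference of responses had 1 call each with centred arrays, a pseudocount of 50%, the mean of probe sets or a replicate block, Il7r each time, with an adjusted p of 0.0417 to 0.0489. Deviations of same-numbered arrays had correlations from -0.104 to 0.119, within the -0.136 to 0.153 of other-numbered arrays. They show no pairing by number, but cannot exclude it. Under the block 4 members were called lower instead of 3 for CLP in knockout-labelled lungs. With only the 2 groups fitted, genotype after CLP had 8 calls, and with the mean of probe sets genotype after sham had 1, Bcl11b.

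The T cell median in knockout-labelled CLP was 0.51 with quantile normalisation and 0.52 with centring, and the B cell median there was -0.33 with centring and -0.36 with array weights. The B cell median in wild-type CLP ranged from -0.30 to 0.0626 without 1 array and was 0.0759 with the mean of probe sets, which covers tested genes only. For the difference of responses, the T cell median was 0.33 with the mean of probe sets, and it turned to -0.07 without array 1 of knockout-labelled sham and -0.01 without array 3 of wild-type CLP. The B cell median was -0.18 with array weights and -0.56 to -0.21 without 1 array. Itga4, lower by genotype after CLP, turned to 0.14 with the mean of probe sets. Calls on signals near the array medians, as for Fcer2a and Cd247, rest on little signal over background, and Cd4 gives none.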
